A study of Homo sapiens with 6 samples.

Results

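The H3K27Ac and H3K4me3 peaks along human chromosome 17 are described here for OCI-AML3 cells, a cultured acute myeloid leukemia line that expresses mutant NPM1 (mtNPM1). The chromosome was selected by its peak density in these same lists, so its density is given as a description and no test was made on it. All peaks listed on chromosome 17 were taken except those touching the HOXB1 to HOXB13 cluster or RARA with 20 kb on either side. This left 14615 of the 327715 peaks of the sgNeg H3K27Ac list and 12840 of 317059 in the sgNpm1A H3K27Ac list. For H3K4me3 it left 17881 of 353628 peaks in sgNeg and 5196 of 106641 in sgNpm1A. The HOXB region took out 26, 29, 35 and 6 peaks of these lists in turn, and RARA took out 26, 24, 22 and 5.

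Transfection delivered sgNeg, a control guide RNA, or sgNpm1A, which is directed at mtNPM1, and per the labels the culture lasted 3 days, while the methods of the study give a longer time for these assays. All groups shared the cell line, which carries mutant NPM1, and within a mark they differed in the guide. The level of mtNPM1 after either guide was not measured in these lists. Each guide and mark had 1 library, so no difference between guides has a replicate check, and every interval below covers counting error only. The 2 input samples were not analysed here. A guide difference cannot be told apart from a difference between libraries.

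H3K27Ac, acetylation of lysine 27 on histone H3, lies at active promoters and enhancers. H3K4me3, trimethylation of lysine 4, lies mainly at the starts of transcribed genes. Chromosome 17 is rich in genes, among them NCOR1 on its short arm and NF1, STAT3, SRSF2 and PPM1D on its long arm. A peak list counts places where reads pile up over a local expectation, so its density can follow the marks, the depth of a library and the number of copies of the DNA. Copy number was not measured in these lists, and its part in what follows was not tested.

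The lists differed in how far they held the defining feature of their mark. A peak lay within 1 kb of a start in 79.1% of 20162 coding genes genome-wide for sgNeg H3K27Ac, and in 57.0% for sgNpm1A H3K27Ac. The share was 68.3% of 19662 coding genes for sgNeg H3K4me3 and 9.49% for sgNpm1A H3K4me3. Most promoters, where this mark is usually found, thus had no peak in the sgNpm1A H3K4me3 list, and its values below are those of the library so labelled. Of 6 myeloid markers (SPI1, CEBPA, CD33, MPO, CSF3R and LYZ), 6, 4, 5 and 0 had a promoter peak in sgNeg H3K27Ac, sgNpm1A H3K27Ac, sgNeg H3K4me3 and sgNpm1A H3K4me3. The T cell markers CD3E, CD3D, CD2 and CD4 had 3, 3, 2 and 1, the B cell markers PAX5 and MS4A1 had 2, 1, 0 and 0, and the liver genes ALB and APOA1 had 2, 1, 0 and 0. The median promoter peak percentile by fold enrichment, with 0 for a gene with no peak, was taken for each set. In sgNeg H3K27Ac it was 97.1 for the myeloid, 32.0 for the T cell, 63.8 for the B cell and 47.2 for the liver genes. In sgNpm1A H3K27Ac these were 53.9, 46.8, 49.0 and 33.8. The B cell and liver values there each rest on 1 gene with a peak and 1 without. With so few genes and zeros among them, these medians do not set the myeloid markers apart in that list.

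The excess of peaks lay in the outer part of the long arm. The chromosome was divided into the short arm, a proximal long arm and a distal long arm, with the border at the 500 kb bin that holds the start of CCDC182 (GRCh37 start 55822660, GRCh38 start 57745299). That border was found in the sgNeg H3K27Ac list by a search described below and then applied to the other 3 lists. Sequences from 4 sgNeg H3K27Ac peaks are given as examples. The first 3 are the middle 300 bases of the peak with the highest fold enrichment in each stretch, among peaks of at least 300 bases whose middle touched no exon. The last is from a proximal peak over 50 kb from a coding start, also covered in sgNpm1A, with a fold enrichment at the middle of such peaks. All are the plus strand of GRCh37, and capitals mark CpG dinucleotides, which are dense at many promoters.
Short arm, in UBE2G1 beside its start, chr17:4268821-4269120: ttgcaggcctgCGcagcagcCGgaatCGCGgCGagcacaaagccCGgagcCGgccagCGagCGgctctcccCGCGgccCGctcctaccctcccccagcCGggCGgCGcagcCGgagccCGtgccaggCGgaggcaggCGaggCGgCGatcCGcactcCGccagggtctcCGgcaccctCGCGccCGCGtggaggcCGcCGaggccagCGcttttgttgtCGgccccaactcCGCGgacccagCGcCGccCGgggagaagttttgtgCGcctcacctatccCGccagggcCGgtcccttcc
Proximal long arm, outside genes, nearest start TMEM106A, chr17:41400383-41400682: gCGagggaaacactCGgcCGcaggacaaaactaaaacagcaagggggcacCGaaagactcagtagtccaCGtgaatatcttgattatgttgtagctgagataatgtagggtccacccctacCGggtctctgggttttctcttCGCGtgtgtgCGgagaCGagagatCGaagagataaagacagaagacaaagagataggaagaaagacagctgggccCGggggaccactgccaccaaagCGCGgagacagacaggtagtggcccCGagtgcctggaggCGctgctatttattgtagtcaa
Distal long arm, outside genes, nearest start SLC38A10, chr17:79307618-79307917: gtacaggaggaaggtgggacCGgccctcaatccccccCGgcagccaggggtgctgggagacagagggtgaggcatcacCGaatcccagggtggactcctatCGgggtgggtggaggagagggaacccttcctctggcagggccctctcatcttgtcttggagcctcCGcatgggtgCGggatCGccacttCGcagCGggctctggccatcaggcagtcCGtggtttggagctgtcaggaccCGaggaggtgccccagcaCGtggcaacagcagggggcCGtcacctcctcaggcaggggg
Proximal long arm, far from genes, nearest start TMEM132E, chr17:33062779-33063078: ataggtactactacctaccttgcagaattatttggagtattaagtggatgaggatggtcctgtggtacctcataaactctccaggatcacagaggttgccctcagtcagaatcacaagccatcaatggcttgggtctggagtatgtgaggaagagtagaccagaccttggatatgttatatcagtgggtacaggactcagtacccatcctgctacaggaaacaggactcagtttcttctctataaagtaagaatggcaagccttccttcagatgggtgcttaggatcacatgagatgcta

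The first window lay in an intron of UBE2G1, which encodes a ubiquitin-conjugating enzyme. Its peak was 1881 bases wide with a fold enrichment of 12.3 in sgNeg, and no sgNpm1A H3K27Ac peak overlapped it. It held 40 CpG in 300 bases and 75.7% G and C. The window near TMEM106A lay in a peak of 14.3-fold in sgNeg and 13.7-fold in sgNpm1A, and held 16 CpG. The distal window lay in a peak 28079 bases wide, with 10.3-fold in sgNeg and 3.37-fold in sgNpm1A, and held 13 CpG. The window far from genes held 0 CpG. Its peak was weak, at 2.75-fold in sgNeg and 2.86-fold in sgNpm1A, with a q-value of 0.0338 in sgNeg, as listed by the peak caller.

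Over the middle 300 bases of all sgNeg H3K27Ac peaks, the median share of G and C was 53.7% on the short arm, 52.0% on the proximal long arm and 49.3% on the distal long arm. The whole distal stretch held 46.1% G and C, against 44.7% for the proximal one and 46.1% for the short arm. The distal peaks therefore held less G and C than those of the other stretches, while the distal DNA did not. Within 1 kb of a start the medians were 58.3%, 57.0% and 57.7% in the same order. The median CpG count in the middle 300 bases of all sgNeg H3K27Ac peaks was 5, 3 and 4, again in that order. The first 3 windows above, picked by highest fold, thus held more CpG than the median peak of their stretch. The GRCh38 peaks of H3K4me3 were not read for sequence here.

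The long arm held more peaks per megabase (Mb) than the short arm in all 4 lists, with no more coding genes. In sgNeg H3K27Ac the density was 143 peaks per Mb on the short arm and 207 on the long arm, a ratio of 1.45 (95% Wilson interval 1.388 to 1.504). In sgNpm1A H3K27Ac it was 119 and 185, a ratio of 1.56 (1.49 to 1.63). In sgNeg H3K4me3 it was 135 and 269, a ratio of 1.99 (1.91 to 2.07). In sgNpm1A H3K4me3 it was 33.0 and 80.5, a ratio of 2.44 (2.26 to 2.65). The coding gene density went the other way, with 16.2 genes per Mb on the short arm and 15.0 on the long arm in GRCh37, and 16.05 and 14.61 in GRCh38. The stretch around the centromere, between KCNJ12 and WSB1, was kept apart and held 50, 53, 41 and 13 peaks.

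The arms as a whole hid a sharper division. On the proximal long arm, from WSB1 to CCDC182, the density of sgNeg H3K27Ac peaks was 134 per Mb, below the 143 of the short arm. Beyond CCDC182 it was 290 per Mb. For sgNpm1A H3K27Ac the short arm, proximal and distal long arm held 119, 119 and 261 peaks per Mb. For sgNeg H3K4me3 they held 135, 131 and 429, and for sgNpm1A H3K4me3 33.0, 32.3 and 137. The proximal long arm to short arm ratio was 0.936 (0.893 to 0.982), 1.00 (0.951 to 1.05), 0.972 (0.926 to 1.02) and 0.979 (0.888 to 1.08) in the 4 lists. The distal to proximal ratio was 2.16 (2.08 to 2.25) for sgNeg H3K27Ac, the list that set the border. In the other lists it was 2.19 (2.11 to 2.29) for sgNpm1A H3K27Ac, 3.26 (3.15 to 3.38) for sgNeg H3K4me3 and 4.24 (3.95 to 4.55) for sgNpm1A H3K4me3. The nearness of the H3K27Ac ratios of the guides depended on the peaks used. Among the 20000 peaks of lowest p-value in each list the ratio was 1.96 in sgNeg H3K27Ac and 5.06 in sgNpm1A H3K27Ac, and 3.74 and 9.01 for H3K4me3. At a q-value under 0.01 it was 2.77 and 3.46 for H3K27Ac. The long to short arm ratio also moved by over 1.5 times among the 20000 peaks, to 2.69 in sgNpm1A H3K27Ac and 4.07 in sgNpm1A H3K4me3. All 4 libraries came from 1 cell line, so these are not independent cells.

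The distal long arm held 51.0% of the sgNeg H3K27Ac members, 52.1% of those of sgNpm1A H3K27Ac, 61.5% of those of sgNeg H3K4me3 and 67.5% of those of sgNpm1A H3K4me3. Peaks there were also somewhat wider, with a median width of 464 bases against 387 on the proximal long arm in sgNeg H3K27Ac, and 229 against 183 in sgNeg H3K4me3. The share of DNA under a peak was 9.549% on the proximal and 26.97% on the distal long arm in sgNeg H3K27Ac, and 6.94% and 22.4% in sgNpm1A H3K27Ac. It was 3.36% and 13.8% in sgNeg H3K4me3, and 1.41% and 8.26% in sgNpm1A H3K4me3.

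**Figure D1:**
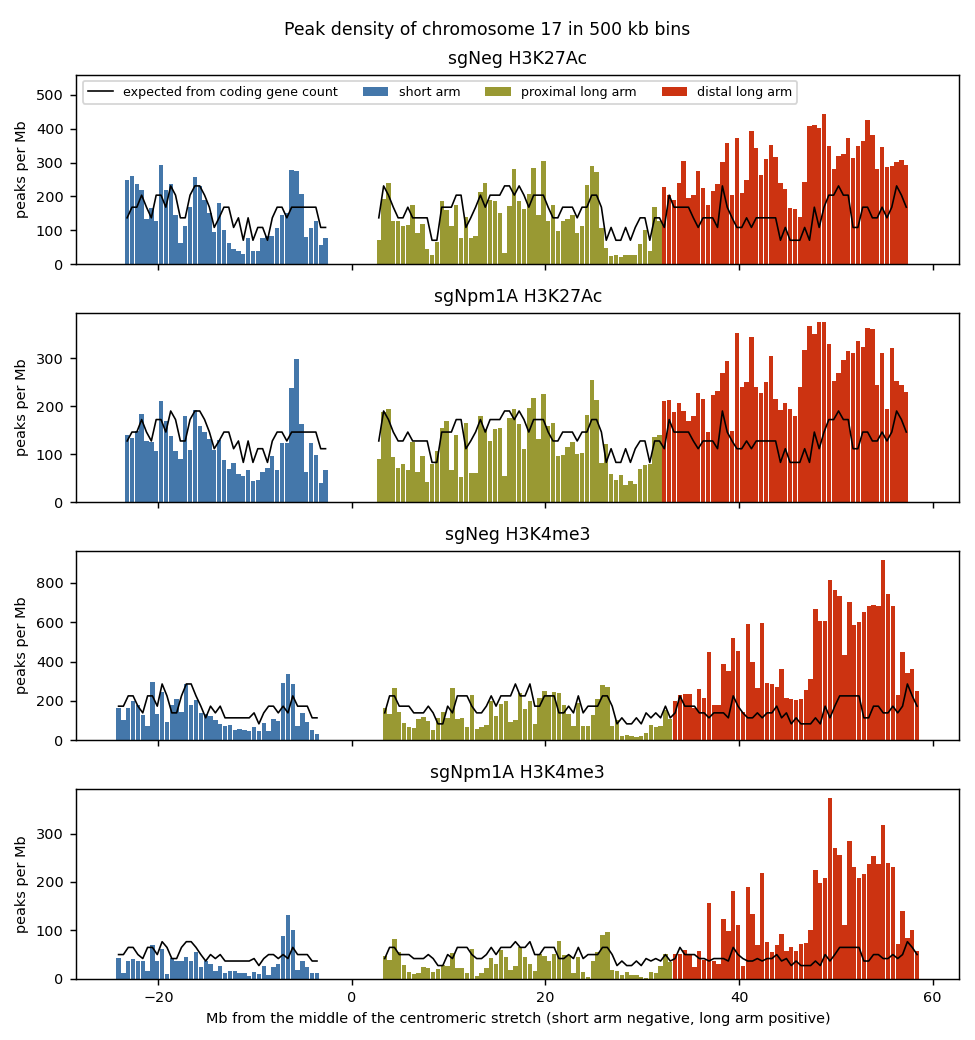
Peaks per Mb in 500 kb bins of chromosome 17 (bars, colored by stretch) against distance in Mb from the middle of the centromeric stretch, for each list. The black line is the number expected from autosomal bins of the same coding gene count class, and most bars of the distal long arm run above it (all but 1 of 51 in sgNeg H3K4me3 and 7 in sgNpm1A H3K4me3), where the mean density was 290, 261, 429 and 137 peaks per Mb from top to bottom.

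Gene density was compared directly, since both marks collect at genes. The distal long arm had the fewest coding genes, 12.8 per Mb in GRCh37 against 17.003 on the proximal long arm and 16.2 on the short arm. In GRCh38 it had 12.35 against 16.55 and 16.05. Each bin was therefore set against the mean of autosomal bins outside chromosome 17 with a like number of coding genes (0, 1 to 2, 3 to 5, 6 to 10, 11 to 20, or over 20). The observed count over this expected count was 0.920 on the short arm, 0.852 on the proximal and 2.001 on the distal long arm in sgNeg H3K27Ac. It was 0.8496, 0.843 and 1.96 in sgNpm1A H3K27Ac, 0.794, 0.772 and 2.80 in sgNeg H3K4me3, and 0.667, 0.653 and 3.03 in sgNpm1A H3K4me3. Taking gene count into account widened the distal to proximal ratio, to 2.35, 2.32, 3.62 and 4.64 in the 4 lists.

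The bins of the distal long arm were shifted upward from those of the other stretches, with overlap at the edges. In sgNeg H3K27Ac the observed over expected count had a lowest, median and highest value of 0.278, 0.834 and 1.81 over the 42 bins of the short arm. Over the 59 proximal bins these were 0.138, 0.761 and 1.49, and over the 51 distal bins 1.00, 2.06 and 5.78. In sgNpm1A H3K27Ac the distal bins ran from 1.14 through 1.92 to 4.43, and in sgNeg H3K4me3 from 0.956 through 2.59 to 7.20. In sgNpm1A H3K4me3 they ran from 0.483 through 2.70 to 10.3, so that 7 of 51 distal bins fell below the expected count there. Of the 51 distal bins, 51, 51, 51 and 50 were above the proximal median in the 4 lists, and 40, 38, 34 and 30 were above the highest proximal bin. Fewer, 32, 22, 29 and 21, were above the highest short-arm bin. Bins at 2 or more times the expected count made up 10.5%, 9.82%, 12.8% and 13.7% of all autosomal bins in the 4 lists. On the distal long arm 27, 23, 32 and 30 of 51 bins were that high, and on the proximal long arm 0 in each list. On the short arm there were 0, 1, 1 and 1 of 42. That bin, chr17:17500001-18000000 in either build, was looked up after its values were seen. It holds the starts of RAI1, a transcriptional regulator gene, and SREBF1, which encodes a transcription factor of lipid synthesis. Its observed over expected count was 2.04 in sgNpm1A H3K27Ac, 2.41 in sgNeg H3K4me3 and 3.19 in sgNpm1A H3K4me3, and 1.64 in sgNeg H3K27Ac.

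**Figure D2:**
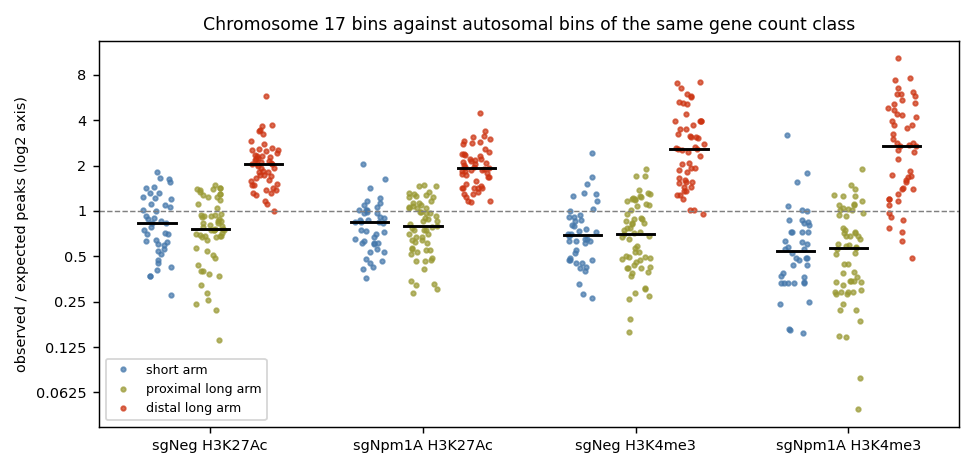
Observed over expected peak count (log2 axis) of each 500 kb bin of chromosome 17, by stretch and list, with the median as a black bar and the expected value of 1 as a dashed line. The medians of the distal long arm were 2.06, 1.92, 2.59 and 2.70 from left to right, and those of the short arm and the proximal long arm were all below 1.

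Within every gene count class the distal long arm was denser than the proximal one, in each list. In bins with no coding gene, sgNeg H3K27Ac had 224 peaks per Mb over 5 distal bins, 36.3 over 7 proximal bins and 70.5 over 1335 bins of other autosomes. In bins with 11 to 20 coding genes it had 307 over 6 distal bins, 213 over 14 proximal bins and 204 on other autosomes. The distal to proximal ratio across classes ran from 1.44 to 6.16 in this list. In sgNpm1A H3K27Ac it ran from 1.64 in bins with 11 to 20 genes to 3.85 in bins with 1 to 2. In sgNeg H3K4me3 the lowest ratio was 2.23, in bins with over 20 genes, of which there was 1 distal bin, and the highest was 8.69, in bins with 1 to 2 genes. In sgNpm1A H3K4me3 the range was 3.00 to 10.1, for the same classes.

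The usual link between genes and peaks was present on most of the chromosome and weak in its distal part. Over bins, Spearman's rho of peak density with coding gene count was 0.717 on the short arm (42 bins), 0.692 on the proximal long arm (59 bins) and 0.258 on the distal long arm (51 bins) in sgNeg H3K27Ac. It was 0.636, 0.552 and 0.134 in sgNpm1A H3K27Ac, 0.628, 0.549 and 0.150 in sgNeg H3K4me3, and 0.550, 0.490 and 0.0904 in sgNpm1A H3K4me3. These are descriptions over neighbouring bins of 1 library each.

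**Figure D3:**
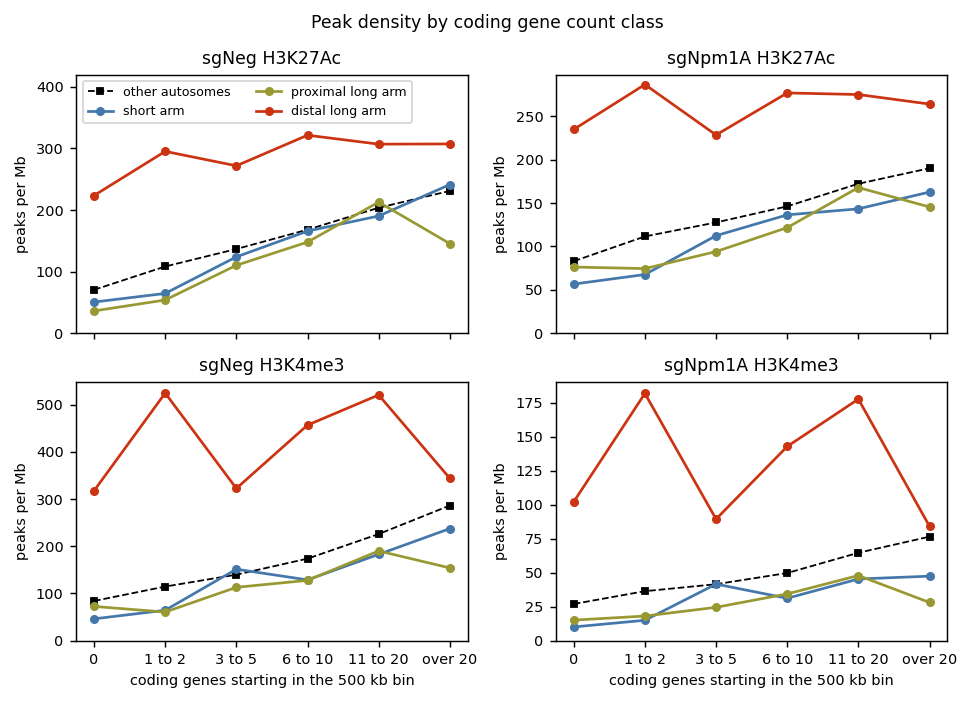
Peaks per Mb (vertical axis) by the number of coding genes starting in a 500 kb bin (horizontal axis), for the 3 stretches of chromosome 17 (colored) and the other autosomes (dashed), 1 panel for each list. The distal long arm lies above the other lines in every class, by a distal to proximal ratio of 1.44 to 6.16 in sgNeg H3K27Ac.

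The shape along the chromosome was searched for a single step. For each list the change point was placed where 2 levels of the log2 ratio of observed to expected counts gave the least squared error. In both H3K27Ac lists it fell at chr17 position 55500001 of GRCh37, inside MSI2, which encodes an RNA-binding protein of blood stem cells, and before the start of CCDC182. The mean observed over expected count was 0.845 before and 2.15 after the step in sgNeg, a ratio of 2.54, and the step accounted for 51.7% of the squared deviation. In sgNpm1A these were 0.837 and 2.04, a ratio of 2.43 and 57.3%, and the ratio rose to 3.90 with peaks at a q-value under 0.01. The H3K4me3 steps lay further out. In sgNeg H3K4me3 the change point was at 60000001 of GRCh38, between the starts of RNFT1 and HEATR6, with a ratio of 4.01 and 60.3% of the squared deviation. In sgNpm1A H3K4me3 it was at 61000001, between the starts of BCAS3 and TBX2, which encodes a T-box transcription factor, with a ratio of 5.27 and 57.5%. TBX2 and BCAS3 lie beyond CCDC182 on the chromosome, so with these settings the marks did not place the step at the same genes. The position moved with the settings. With no gene count adjustment the sgNeg H3K4me3 step was at 58000001, close to the GRCh38 start of CCDC182 at 57745299. The sgNpm1A H3K4me3 step was then at 62500001.

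A single step was a coarse account of the profile. In GRCh37 windows of 5 Mb, the observed over expected count of sgNeg H3K27Ac was 0.515 at 50 to 55 Mb, 1.46 at 55 to 60 Mb, 1.97 at 60 to 65 Mb and 2.34 at 65 to 70 Mb. It was 2.13 and 2.18 in the next 2 windows and 1.61 in the last one, from 80 Mb. The sgNpm1A H3K27Ac values were 0.612, 1.42, 1.93, 2.08, 2.20, 2.18 and 1.49 over the same windows. In GRCh38 windows, the sgNeg H3K4me3 values were 0.660 at 50 to 55 Mb, then 1.00, 2.14, 2.74, 4.12 and 3.802 in the following windows, and 1.98 in the last one. The sgNpm1A H3K4me3 values were 0.660, 0.809, 1.97, 2.65, 4.82, 4.56 and 2.07. The H3K27Ac lists thus stayed between 1.93 and 2.34 from 60 to 80 Mb, while the H3K4me3 lists rose further up to the window from 70 to 75 Mb. All 4 were lower in the last window. The window from 50 to 55 Mb, just before the H3K27Ac rise, was the lowest of the long arm in those 2 lists. It holds CA10, KIF2B and TOM1L1, which return below among the sparsest bins.

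Other autosomes had steps of like size. The step of chromosome 17 was number 3, 4, 3 and 4 in size among the best steps of 22 autosomes in the 4 lists, whichever direction the step took. It was number 2, 3, 3 and 3 by the share of squared deviation. The steps that were larger lay on chromosomes 5 and 21 for sgNeg H3K27Ac, 4 and 5 for sgNeg H3K4me3, and 4, 5 and 21 for both sgNpm1A lists. On chromosome 5 the ratio was 0.205, 0.245, 0.0988 and 0.0744 in sgNeg H3K27Ac, sgNpm1A H3K27Ac, sgNeg H3K4me3 and sgNpm1A H3K4me3, with the short-arm side the denser one. The median size over the other autosomes was 1.82, 1.64, 2.02 and 2.74. A search for the best step always returns one, so these medians are the level against which 2.54, 2.43, 4.01 and 5.27 are to be read. As a whole, chromosome 17 was at 1.24, 1.21, 1.41 and 1.41 times its expected count, number 5 of 22 in every list. Chromosome 16 was at 0.923 and chromosome 19, with the most coding genes per Mb, at 0.914 in sgNeg H3K27Ac.

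**Figure D4:**
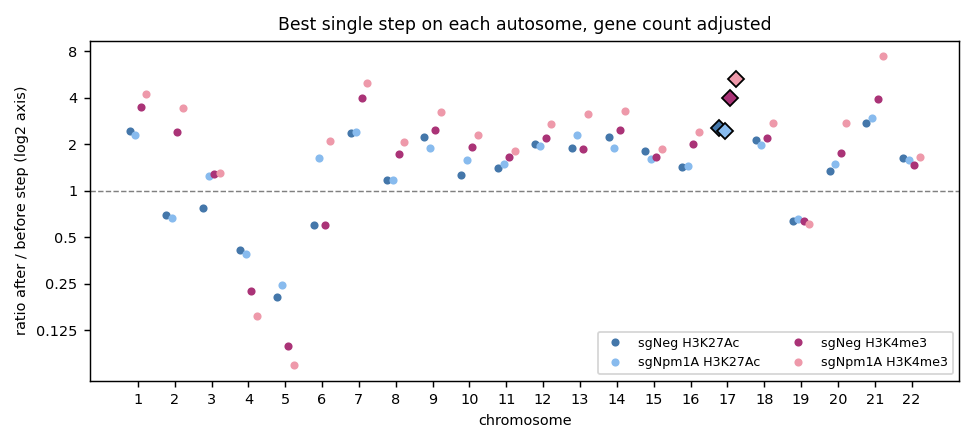
Ratio of the mean observed over expected count after the best single step to that before it (log2 axis) on each autosome, with chromosome 17 as diamonds. Chromosome 17 stands at 2.54, 2.43, 4.01 and 5.27, among the larger steps, and chromosome 5 has the largest one, in the opposite direction.

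The extra distal peaks lay mainly away from gene starts. In sgNeg H3K27Ac, peaks within 1 kb of a coding start numbered 26.5 per Mb on the proximal and 33.3 on the distal long arm, a ratio of 1.26 (1.14 to 1.39). At 1 to 10 kb the ratio was 1.77 (1.66 to 1.88), at 10 to 50 kb 2.52 (2.34 to 2.71), and over 50 kb 4.91 (4.38 to 5.51), with 12.4 and 60.8 peaks per Mb. In sgNeg H3K4me3 the ratio went from 1.49 (1.30 to 1.71) within 1 kb through 2.57 and 2.98 to 5.46 (5.07 to 5.88) over 50 kb. In sgNpm1A H3K27Ac it went from 1.54 (1.38 to 1.73) through 1.87 and 2.34 to 3.45 (3.12 to 3.81). The sgNpm1A H3K4me3 ratio was already 3.27 (2.096 to 5.093) within 1 kb, from 26 proximal and 73 distal peaks, and 7.15 (6.19 to 8.26) over 50 kb. The amount of DNA at each distance differed less between the stretches. DNA over 50 kb from a start made up 21.7% of the proximal and 23.6% of the distal long arm in GRCh37, and 33.0% and 39.6% in GRCh38. Per Mb of that DNA the distal to proximal ratio was 4.50, 3.16, 4.55 and 5.96 in the 4 lists, against 1.30, 1.597, 1.81 and 3.96 per Mb of DNA within 1 kb. Peaks over 50 kb from a start made up 20.998% of the distal and 9.27% of the proximal peaks in sgNeg H3K27Ac, and 36.5% and 21.8% in sgNeg H3K4me3. Only 4.32% of the distal and 9.47% of the proximal sgNeg H3K4me3 peaks lay within 1 kb of a start, and 10.8% of those of the short arm. In sgNeg H3K27Ac these were 11.5%, 19.7% and 20.1%.

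The excess was not limited to the weakest peaks. In sgNeg H3K4me3 the distal to proximal ratio was 1.99 (1.85 to 2.14) for peaks under 3-fold enrichment, 3.36 (3.20 to 3.53) at 3 to 4-fold, 6.70 (6.03 to 7.44) at 4 to 6-fold, and 2.49 (2.08 to 2.99) at 6-fold or more. In sgNeg H3K27Ac it was 1.96, 2.99, 1.65 and 2.105 in the same classes, and the 6-fold class held 50 proximal and 92 distal peaks. In sgNpm1A H3K27Ac the ratio was 1.58 under 3-fold and 5.41 (3.85 to 7.59) at 4 to 6-fold. At 6-fold or more it was 2.48 (0.975 to 6.30), from 6 proximal and 13 distal peaks, so few that the ratio is poorly set. In sgNpm1A H3K4me3 it was 7.53 (6.54 to 8.68) at 4 to 6-fold. Of the 76 peaks of 6-fold or more in that list, 0 lay on the short arm, 1 on the proximal and 75 on the distal long arm.

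**Figure D5:**
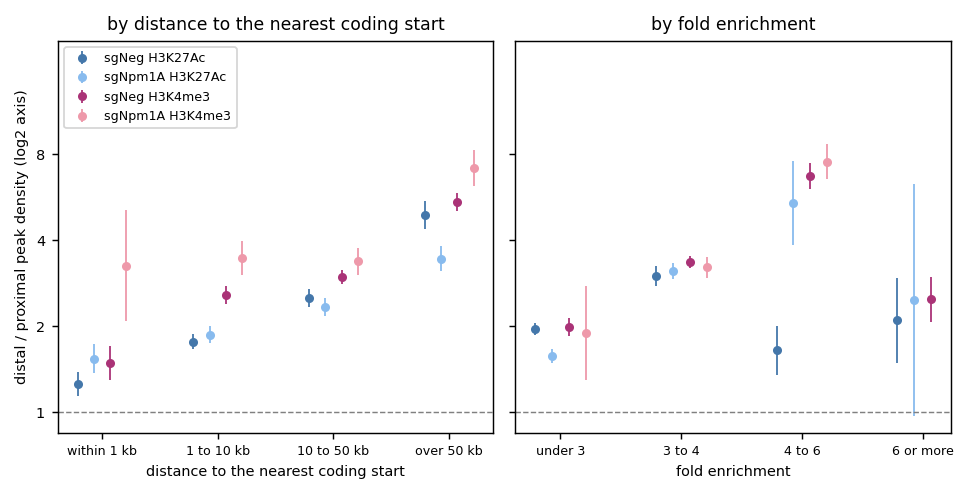
Ratio of distal to proximal long-arm peak density (log2 axis) by distance to the nearest coding start (left) and by fold enrichment (right), with 95% Wilson intervals, for classes with at least 5 peaks in each stretch. Among the distance classes the ratio is highest over 50 kb from a start in each list, at 4.91, 3.45, 5.46 and 7.15 in the order of the key.

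The densest bins were all distal. In sgNeg H3K27Ac the densest bin, chr17:72000001-72500000, held 221 peaks and 8 coding genes, with RPL38, a ribosomal protein gene, and CD300A, which encodes an inhibitory receptor of myeloid cells. The next held 213 peaks, with TIMP2, an inhibitor of matrix metalloproteinases, CYTH1, USP36 and LGALS3BP, and then 205, with the somatostatin receptor gene SSTR2, COG1 and CDC42EP4. In sgNpm1A H3K27Ac the 3 densest bins held 188, 188 and 184 peaks. These were the bin with SDK2, a cell adhesion gene, that of RPL38 and CD300A, and a bin with no coding start. That gene-free bin, chr17:70500001-71000000, also held 204 peaks in sgNeg, at 5.78 times its expected count. In sgNeg H3K4me3 the densest bins held 458 peaks (CANT1, C1QTNF1 and ENGASE), 407 (SDK2) and 381 (the RPL38 and CD300A bin). In sgNpm1A H3K4me3 they held 187 (SDK2), 159 (CANT1, C1QTNF1 and ENGASE) and 142, the last with 20 coding genes, among them H3-3B, a histone H3.3 gene. In these bins from 0% to 10.8% of the peaks lay within 1 kb of a start.

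The sparsest bins lay on the proximal long arm or the short arm. In sgNeg H3K27Ac they held 10 peaks in a gene-free bin, 12 beside CA10, a carbonic anhydrase-related gene, and 13 in another gene-free bin. In sgNpm1A H3K27Ac they held 18 peaks beside KIF2B, a kinesin gene, 19 beside TOM1L1, and 20 on the short arm with LGALS9B and CDRT15L2. In sgNeg H3K4me3 they held 9 peaks (KIF2B), 11 (CA10) and 11 (no coding start). In sgNpm1A H3K4me3 they held 1 peak (TOM1L1, COX11 and STXBP4), 2 (no coding start) and 3, the last on the short arm at HS3ST3A1.

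The highest single peak of the long arm was proximal in both H3K27Ac lists and distal in both H3K4me3 lists. In sgNeg H3K27Ac the highest peaks of the long arm were all proximal, at 18.8-fold near UNC45B, 14.3-fold near TMEM106A and 13.9-fold near MYO1D. Those of the short arm were 12.3-fold at UBE2G1, 9.13-fold at EIF5A, a translation factor gene, and 8.78-fold at NCOR1, a nuclear receptor corepressor gene. In sgNpm1A H3K27Ac the long arm had 13.7-fold near TMEM106A, 10.5-fold at RAB40B and 9.76-fold near TNRC6C. The short arm had peaks of 8.21, 7.65 and 6.79-fold, with NXN, PMP22 and CDRT15L2 as the closest coding starts. These starts were 7520, 58719 and 154487 bases away, so the last 2 peaks were far from them. In sgNeg H3K4me3 the highest long-arm peaks were distal, at 17.9-fold at UBALD2, 16.6-fold at MFSD11 and 16.2-fold near TNRC6C. The short arm had 13.9-fold at UBE2G1, 13.5-fold at CRK, an adaptor protein gene, and 13.3-fold at PHF23. In sgNpm1A H3K4me3 the highest long-arm peaks were distal as well, at 9.67-fold near TNRC6C, 8.90-fold near RBFOX3 and 8.65-fold near RGS9. On the short arm they reached 5.85-fold near LLGL1, 5.60-fold near ABR and 5.60-fold near PLSCR3. These sgNpm1A H3K4me3 peaks lay 3066 to 37051 bases from the closest coding start, against 232 to 13604 in sgNeg H3K4me3.

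Promoters carried the marks more often on the distal long arm, though by a smaller margin than the density of all peaks. In sgNeg H3K27Ac 292 of 346 coding genes of the short arm had a promoter peak (84.4%, Wilson interval 80.2% to 87.8%). On the proximal long arm 384 of 500 had one (76.8%, 72.9% to 80.3%), and on the distal long arm 310 of 328 (94.5%, 91.5% to 96.5%). In sgNpm1A H3K27Ac the shares were 65.6%, 55.6% and 87.5%. In sgNeg H3K4me3 they were 72.8%, 60.1% and 87.0% (82.9% to 90.3%), and in sgNpm1A H3K4me3 5.74%, 6.92% and 20.9% (16.8% to 25.7%). The proximal long arm holds 62 keratin and keratin-associated protein genes, which are used in skin and hair. Without them its shares were 85.6%, 60.5%, 67.4% and 6.29% in the 4 lists, still below those of the distal long arm. Where more DNA lies under peaks, more promoters touch one by position alone. In sgNeg H3K27Ac peaks covered 9.549% of the proximal and 26.97% of the distal long arm. The part of this coverage in the promoter shares was not tested. Among promoters with a peak, the median fold enrichment in sgNeg was 4.18, 3.89 and 4.69 for H3K27Ac on the short arm, proximal and distal long arm, and 6.66, 6.24 and 8.53 for H3K4me3.

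For the gene lists that follow, the share of all coding genes with a promoter peak is the level to read against, at 79.1% and 57.0% for H3K27Ac in sgNeg and sgNpm1A, and 68.3% and 9.49% for H3K4me3. On chromosome 17 it was 84.0% and 67.5%, and 71.3% and 10.5%. The median fold over all coding genes, with 0 for no peak, was 3.46 and 2.77 for H3K27Ac, and 4.16 and 0 for H3K4me3.

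Housekeeping genes of chromosome 17 carried both marks in sgNeg throughout. All 30 had a promoter peak in sgNeg H3K27Ac and in sgNeg H3K4me3, with a median fold enrichment of 6.05 and 10.3. In H3K27Ac the highest were EIF5A at 9.13, KPNA2, a nuclear import gene, at 8.91 and DDX5, an RNA helicase gene, at 8.91. In H3K4me3 they were ACTG1, a cytoplasmic actin gene, at 15.2, and FASN (fatty acid synthase) and ATP5PD (a subunit of ATP synthase) at 13.3 each. By stretch, the median H3K4me3 value was 8.22 over 8 genes of the short arm, 9.98 over 9 proximal genes and 12.1 over 13 distal genes. The H3K27Ac medians were 6.32, 5.05 and 7.41. In sgNpm1A 19 of 30 had an H3K27Ac promoter peak, 12 of them among the 13 distal genes, and 0 of 30 had an H3K4me3 promoter peak. The 63.3% for H3K27Ac lay between the 57.0% of all coding genes and the 67.5% of chromosome 17, and the distal count was near the 87.5% of all distal genes.

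Genes for chromatin regulators were nearly all marked in sgNeg. All 27 had an H3K27Ac promoter peak and 25 had an H3K4me3 peak, at a median over the list of 5.79 and 7.70-fold. KANSL1, a subunit of the NSL acetyltransferase complex, was highest with 10.2-fold H3K27Ac and 15.0-fold H3K4me3. MED13, a Mediator subunit, had 9.90-fold and JMJD6 9.08-fold H3K27Ac, and SMARCD2, a SWI/SNF subunit, had 14.8-fold and PHF23 13.3-fold H3K4me3. KDM6B, a histone H3 lysine 27 demethylase gene, and MED11 had no H3K4me3 peak within 1 kb of the starts used. In sgNpm1A 17 of 27 had an H3K27Ac peak, and SMARCD2 alone had an H3K4me3 peak, at 4.83-fold. These are 63.0% and 3.70% of the list, against 57.0% and 9.49% of all coding genes.

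Of 24 genes linked to leukemia or tumor suppression, 22 had an H3K27Ac and 18 an H3K4me3 promoter peak in sgNeg. The former is 91.7%, against 79.1% of all coding genes, and the latter is near the 68.3% of all coding genes and the 71.3% of chromosome 17. SRSF2, a splicing factor mutated in myeloid neoplasms, was highest for H3K4me3 at 16.6-fold and for H3K27Ac at 8.97-fold, and it shares its start region with MFSD11. PPM1D, a phosphatase gene, had 13.7-fold H3K4me3 and CDK12 had 11.2-fold. NCOR1 had 8.78-fold and SUZ12, a Polycomb subunit, 7.79-fold H3K27Ac. IKZF3 and HLF, transcription factors of lymphoid and of stem cells, had no peak of either mark in sgNeg. STAT5A, RNF43, AXIN2 and ERBB2 had an H3K27Ac but no H3K4me3 peak there. In sgNpm1A 18 of 24 had an H3K27Ac peak and 2 an H3K4me3 peak, STAT5A and STAT5B, both at 3.05-fold. The H3K27Ac count is above the 57.0% of all coding genes, and the H3K4me3 count is 8.33%, near their 9.49%.

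Myeloid and blood cell genes had lower median promoter folds in sgNeg than the lists above. Of 32 that could be measured (PECAM1 was not analysed here), 29 had an H3K27Ac peak in sgNeg, with a median over the list of 3.34-fold. MPO, the myeloperoxidase of granules, was highest at 6.25-fold, followed by CD68, a macrophage marker, at 5.85 and CD300LB at 5.19. EIF4A1, a housekeeping gene beside CD68, had the same value of 5.85, so that value is not particular to CD68. For H3K4me3 22 of 32 had a peak in sgNeg, with a median of 3.12-fold. The shares in sgNeg were 90.6% and 68.8%, against 79.1% and 68.3% of all coding genes, and both medians lay below those of all coding genes. GRN, the progranulin gene, was highest at 6.86-fold, followed by CD300C at 6.66 and by CD300A and CD300LF at 5.20 each. ITGB3, CCL4 and SLFN5 had no H3K27Ac peak in sgNeg. In sgNpm1A 22 of 32 had an H3K27Ac peak and 6 an H3K4me3 peak, of which 5 were on the distal long arm. These are 68.8% and 18.8%, against 67.5% and 10.5% of the genes of chromosome 17. CD300A had 3.63-fold H3K27Ac in sgNeg and 4.59-fold in sgNpm1A, with no replicate to judge the difference.

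Genes of other tissues gave the background at promoters. The 6 muscle myosin genes of the short arm (MYH1, MYH2, MYH3, MYH4, MYH8 and MYH13) had no promoter peak in any list. The 5 growth hormone genes (GH1, GH2, CSH1, CSH2 and CSHL1) lie on the dense distal long arm and had none apart from GH2, at 2.90-fold in sgNpm1A H3K27Ac. Of 28 type I keratin genes 7, 10, 4 and 7 had a peak in the 4 lists, at no more than 3.56-fold. Of 34 keratin-associated protein genes 2, 3, 2 and 0 had one. Of the olfactory receptor genes 8 of 14 and 5 of 14 had an H3K27Ac peak in sgNeg and sgNpm1A, and 5 of 13 and 0 of 13 an H3K4me3 peak. OR1G1, at 5.77-fold in sgNeg H3K27Ac, was the highest of them, and the others stayed below 4-fold.

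The guides were compared last, as values of single libraries. On chromosome 17 the sgNpm1A list had 0.879 times as many H3K27Ac peaks as sgNeg, and elsewhere 0.972 times. By stretch the ratio was 0.824 on the short arm, 0.885 on the proximal and 0.897 on the distal long arm. The sgNpm1A H3K27Ac peaks covered 9.31 Mb of chromosome 17 against 11.9 Mb in sgNeg, 0.779 times as much, and elsewhere 0.890 times. For H3K4me3 the ratio of peak numbers was 0.291 on chromosome 17 and 0.302 elsewhere. By stretch it was 0.245, 0.245 and 0.319. Peaks of 6-fold or more on chromosome 17 numbered 175 in sgNeg and 25 in sgNpm1A for H3K27Ac, and 686 and 76 for H3K4me3. For H3K27Ac that is a ratio of 0.143, against 0.228 elsewhere. For H3K4me3 it is 0.111, near the 0.118 elsewhere. Fewer peaks, a weaker enrichment and a lower depth of the library cannot be told apart here.

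Promoters with a peak were fewer in sgNpm1A for both marks. Of 1174 chromosome 17 genes, 231 (19.7%) had an H3K27Ac promoter peak in sgNeg and none in sgNpm1A, against 26.9% of all coding genes. By stretch the share was 20.5%, 26.6% and 8.23%, lowest on the distal long arm. The reverse held for 37 of the 1174 genes, and for 979 of all 20162 coding genes. For H3K4me3, 709 of 1138 (62.3%) had a peak in sgNeg only, against 60.5% of all coding genes, so chromosome 17 was near the background. The reverse held for 17 of the 1138 genes, and for 330 of all 19662 coding genes. By stretch the H3K4me3 share with a peak in sgNeg only was 67.7%, 55.4% and 67.4% of all genes. It depends on how many genes had a sgNeg peak at all. Of those with one, 224 of 241 on the short arm, 272 of 295 proximal and 213 of 275 distal genes had none in sgNpm1A. Over all chromosomes it was 11900 of 13435.

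The lists of the guides overlapped more on the distal long arm than elsewhere. Of the sgNeg H3K27Ac peaks on chromosome 17, 56.5% (55.7% to 57.3%) touched a sgNpm1A peak by at least 1 base, against 50.5% on other chromosomes. Where at least 50% of both peaks had to overlap it was 20.5%, and 8.72% for H3K4me3. The share on other chromosomes under that rule is not given here, so these values have no background to read against. By stretch the share of sgNeg H3K27Ac peaks touched by at least 1 base was 46.3% on the short arm and 46.1% on the proximal long arm. On the distal long arm it was 66.3% (65.2% to 67.4%). Of the sgNpm1A H3K27Ac peaks 63.8% touched a sgNeg peak, against 50.9% on other chromosomes, and 56.1%, 52.3% and 73.0% did so by stretch. For H3K4me3, 26.2% (25.5% to 26.8%) of sgNeg peaks were touched on chromosome 17 and 22.4% elsewhere, with 14.5%, 13.4% and 33.9% by stretch. Of the far fewer sgNpm1A H3K4me3 peaks 71.3% touched a sgNeg peak, against 60.7% on other chromosomes. By stretch it was 50.8%, 49.2% and 81.8%, so only the distal long arm lay above that level. Where more DNA lies under peaks, more peaks touch by position alone. The covered share of the distal long arm in sgNpm1A was 22.4% for H3K27Ac and 8.26% for H3K4me3, against 6.94% and 1.41% on the proximal long arm. The part of this coverage in the overlap was not tested.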

How the data were processed

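ChIPmentation peak lists of H3K27Ac and H3K4me3 in OCI-AML3 cells were used, 1 library for each guide and mark. The submitters' processing notes name bcl2fastq 2.17, Trimmomatic 0.33, Bowtie 1.1.2, MACS2 2.1.0, deepTools and the build hg38. The coordinates fit GRCh37 for the broad H3K27Ac peaks and GRCh38 for the narrow H3K4me3 peaks, so positions were compared within a mark only. The authors deposited a fold enrichment, which is a ratio of pileup to local expectation, with its p-value and q-value as −log10. The deposited score repeats the q-value and was not used. Read depth and the peak threshold are not given in the sources used here.

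Members and gene lists were chosen with earlier results of these data known. Peaks were assigned by midpoint to 500 kb bins, leaving out bins touching long runs of N, with Python 3.11.15, pandas 2.3.3 and numpy 2.4.6. Between 60 and 304 peaks for each list fell in no whole bin and entered no bin count or density. They did enter other values, such as peak totals, widths, overlaps and the shares of peaks by distance. The share of DNA under a peak sets the width of all peaks of a stretch against the length of its whole bins. Genes were GENCODE v44 lifted to GRCh37 (146567 starts of coding transcripts) and RefSeq for GRCh38 (28042 starts), so promoter shares of the marks rest on different numbers of starts. A promoter peak touches 1 kb around a start, and the highest fold was taken. The counts entered log2((observed + 1)/(expected + 1)) for the step search, with at least 10 bins on either side, after the search was tested on simulated data. Intervals are 95% Wilson intervals. Named genes were all listed genes by count, the 3 highest in sgNeg and those without a peak, the 3 densest and sparsest bins, genes beside a step or the centromere, and the 3 highest peaks of each arm. In long lists only part of the genes without a peak were named. The alternatives were a q-value under 0.01, the 20000 lowest p-values, other bin sizes, distant peaks, no gene adjustment, wider promoters and a 50% overlap. Some items on these lists are not reported here by name.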

Additional observations from a re-analysis of the deposited data

How the results depend on the processing

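The distal and long-arm excess kept its direction under all alternatives tried, in all 4 lists, with sizes that moved. The lists are named in the order sgNeg H3K27Ac, sgNpm1A H3K27Ac, sgNeg H3K4me3 and sgNpm1A H3K4me3. The long to short arm ratio was 1.81, 2.099, 2.12 and 2.51 at a q-value under 0.01, 1.54, 2.69, 2.15 and 4.07 among the 20000 peaks of lowest p-value, and 1.44, 1.56, 1.98 and 2.44 with HOXB and RARA kept. The distal to proximal ratio was 2.77, 3.46, 3.47 and 4.35 at a q-value under 0.01 and 1.96, 5.06, 3.74 and 9.01 among the 20000 lowest p-values, alternatives chosen after seeing the data. The step ratio was 3.61, 3.90, 4.33 and 5.41 at a q-value under 0.01, 2.55, 2.45, 4.17 and 5.53 in 1 Mb bins, and 2.45, 2.36, 3.74 and 4.96 in 250 kb bins. It was 2.83, 2.52, 3.92 and 4.91 for peaks over 10 kb from a start, and 2.11, 2.20, 3.25 and 4.55 with no gene count adjustment. With chromosomes 1, 5, 7 and 8 also left out of the reference, chosen after seeing the data, it was 2.74, 2.55, 4.43 and 5.95. The position of the step ranged from 55500001 to 57000001 in sgNeg H3K27Ac and from 54500001 to 55500001 in sgNpm1A H3K27Ac. In GRCh38 it ranged from 58000001 to 60000001 in sgNeg H3K4me3 and from 61000001 to 62500001 in sgNpm1A H3K4me3.

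The share of chromosome 17 sgNeg peaks touched by a sgNpm1A peak was 20.5% for H3K27Ac and 8.72% for H3K4me3 where at least 50% of both peaks had to overlap. It was 44.5% and 27.3% at a q-value under 0.01 in both lists. The shares on other chromosomes at these settings are not given here. Of the 200 listed genes measured for H3K27Ac and 199 for H3K4me3, 125, 95, 106 and 16 had a promoter peak, 99, 47, 105 and 16 at a q-value under 0.01, and 128, 114, 123 and 17 within 2 kb of a start. Among all coding genes the share with a promoter peak within 1 kb was 79.1%, 57.0%, 68.3% and 9.49%. The listed genes include those of other tissues, so their totals are not to be read against these shares. The share of all coding genes at the other settings is not given here. The cause of the moves between settings was not tested. Read depth is not given in the sources used here, so it could not be weighed. No paired analysis was possible because each group held 1 library.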
